A study of Mus musculus with 8 samples.

Results

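The mRNAs of 7 EGF family ligands, Areg, Ereg, Hbegf, Btc, Egf, Tgfa and Nrg1, and of 3 ErbB receptors, Egfr, Erbb2 and Erbb3, were followed in the uterus at gestation day 3.5 (GD3.5). These 10 genes were taken by name from the 24963 genes of the deposited RNA-seq table. Whole uterine tissue came from 4 Nr2f2 f/f mice, called controls, and 4 Nr2f2 d/d mice, called mutants, with 1 library per mouse. Both groups were female C57B6/J mice with 2 floxed Nr2f2 alleles, 8 weeks old by the sample labels, and all were mated to vasectomized males, which leaves the uterus without embryos. The Nr2f2 d/d mice also carried Cre knocked into 1 Pgr allele, which removes Nr2f2 from cells that express the progesterone receptor. The controls had no Cre, so loss of Nr2f2 and the altered Pgr allele cannot be told apart. The comparison asks how the mRNAs of this signalling family differ when the nuclear receptor NR2F2 is lost from those cells.

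EGF family ligands are made as membrane proteins that proteases of the ADAM family cut free. AREG, EREG, HBEGF, BTC, EGF and TGFA bind EGFR, and HBEGF, EREG and BTC also bind ERBB4, while NRG1 binds ERBB3 and ERBB4. ERBB2 has no known ligand and works as the partner of the other receptors, and ERBB3 has little kinase activity of its own. In the mouse uterus before implantation, amphiregulin is known as an epithelial mRNA that progesterone induces, and Hbegf is known for its appearance at the site of the blastocyst. The family therefore links the uterine epithelium, the stroma and the embryo.

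The ligands of this family share an EGF-like motif with 6 cysteines, which does not by itself make a protein a ligand of these receptors. The coding sequence of that motif is shown for 6 of the 7 ligands, so that the genes behind the values can be compared base by base. The stretch runs from the first to the last cysteine codon, in spliced coding order on mm10 with the GENCODE vM21 annotation, and capitals mark the 6 cysteine codons.
Areg: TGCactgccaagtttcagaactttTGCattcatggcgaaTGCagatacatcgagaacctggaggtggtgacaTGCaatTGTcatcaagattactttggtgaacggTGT
Ereg: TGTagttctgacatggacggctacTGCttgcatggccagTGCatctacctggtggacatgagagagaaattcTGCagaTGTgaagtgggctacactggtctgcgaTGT
Btc: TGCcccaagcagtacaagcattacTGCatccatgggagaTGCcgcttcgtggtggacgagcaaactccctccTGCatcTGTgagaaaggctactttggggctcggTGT
Tgfa: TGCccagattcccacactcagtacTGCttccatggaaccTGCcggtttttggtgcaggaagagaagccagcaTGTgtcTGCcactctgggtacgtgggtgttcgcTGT
Egf: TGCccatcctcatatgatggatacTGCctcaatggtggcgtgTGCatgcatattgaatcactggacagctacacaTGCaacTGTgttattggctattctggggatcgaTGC
Nrg1: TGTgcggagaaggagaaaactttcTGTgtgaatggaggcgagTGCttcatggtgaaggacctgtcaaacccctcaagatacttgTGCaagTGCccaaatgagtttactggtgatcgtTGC
Areg, Ereg, Btc and Tgfa hold the motif in 108 coding bases each, Egf in 111 and Nrg1 in 120. In all 6 genes the stretch spans an exon junction: exons 3 and 4 in Areg, Ereg, Btc and Tgfa, exons 20 and 21 in Egf and exons 2 and 3 in Nrg1. The genomic span was chr5:91143614-91144364 on the plus strand for Areg, chr5:91088496-91089111 on the plus strand for Ereg and chr5:91362421-91366197 on the minus strand for Btc. It was chr6:86263200-86269960 on the plus strand for Tgfa, chr3:129686322-129690850 on the minus strand for Egf and chr8:31837698-31849398 on the minus strand for Nrg1.

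The values are FPKM, fragment numbers divided by gene length and library size, so levels can be compared between genes. Library totals, recovered from the FPKM of short genes, were 61500000 to 92700000 fragments. For the tests, 0.5 was added and log2 taken, which makes the fold changes of scarce genes come out smaller, and limma was fitted to the 14323 genes whose mean reached 0.5 FPKM. Nr2f2 itself had 24.1 ± 1.80 FPKM (SD, n = 4) in controls and 8.93 ± 1.36 FPKM (SD, n = 4) in mutants, with no overlap. Control replicate 2 stood apart from its group, with correlations of 0.933 to 0.959 with the other controls, across genes that are not independent, against 0.973 to 0.989 among those others. Its gland markers summed to 3290 FPKM, nearly all of it from Prss29 (1440), Spink1 (1330) and Prss28 (510), while Foxa2, Cxcl15 and Lif of the same list were at their lowest of the 8 libraries there, at 3.24, 1.18 and 0.647 FPKM. Mutant replicate 3 had correlations of 0.942 to 0.976 with its group, against 0.968 to 0.985 among the other mutants, and was the highest of the 8 libraries for Hbegf and Nrg1 and the lowest for Egfr, Erbb2 and Erbb3. Areg, Ereg, Tgfa, Erbb2 and Erbb3 are therefore also given without control replicate 2.

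Of the 10 genes, 8 passed the filter on low values and Ereg and Egf did not. Under limma with Benjamini-Hochberg adjustment over all genes tested, 0 of the 8 had an adjusted p under 0.05, where 2.62% of all genes did, and 2 of the 8 had an unadjusted p under 0.05, where 21.2% of all genes did. At the threshold of the study's methods, a fold change of at least 1.4 with an unadjusted p under 0.05, 1 of the 8 was called, Nrg1, against 8.8% of all genes. The groups did not overlap for 2 of the 8, Nrg1 and Egfr, against 15.4% of all genes. With only 8 genes, these counts stay close to the background shares. Nrg1 passed the filter only through its level in mutants, with a mean of 0.0998 FPKM in controls and 1.25 FPKM in mutants, so its place in these counts is no support for a difference of the family. Of the 8, 2 had a positive log2 fold change and 6 a negative one, with a median of -0.133 beside -0.0191 over all genes tested.

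**Figure D1:**
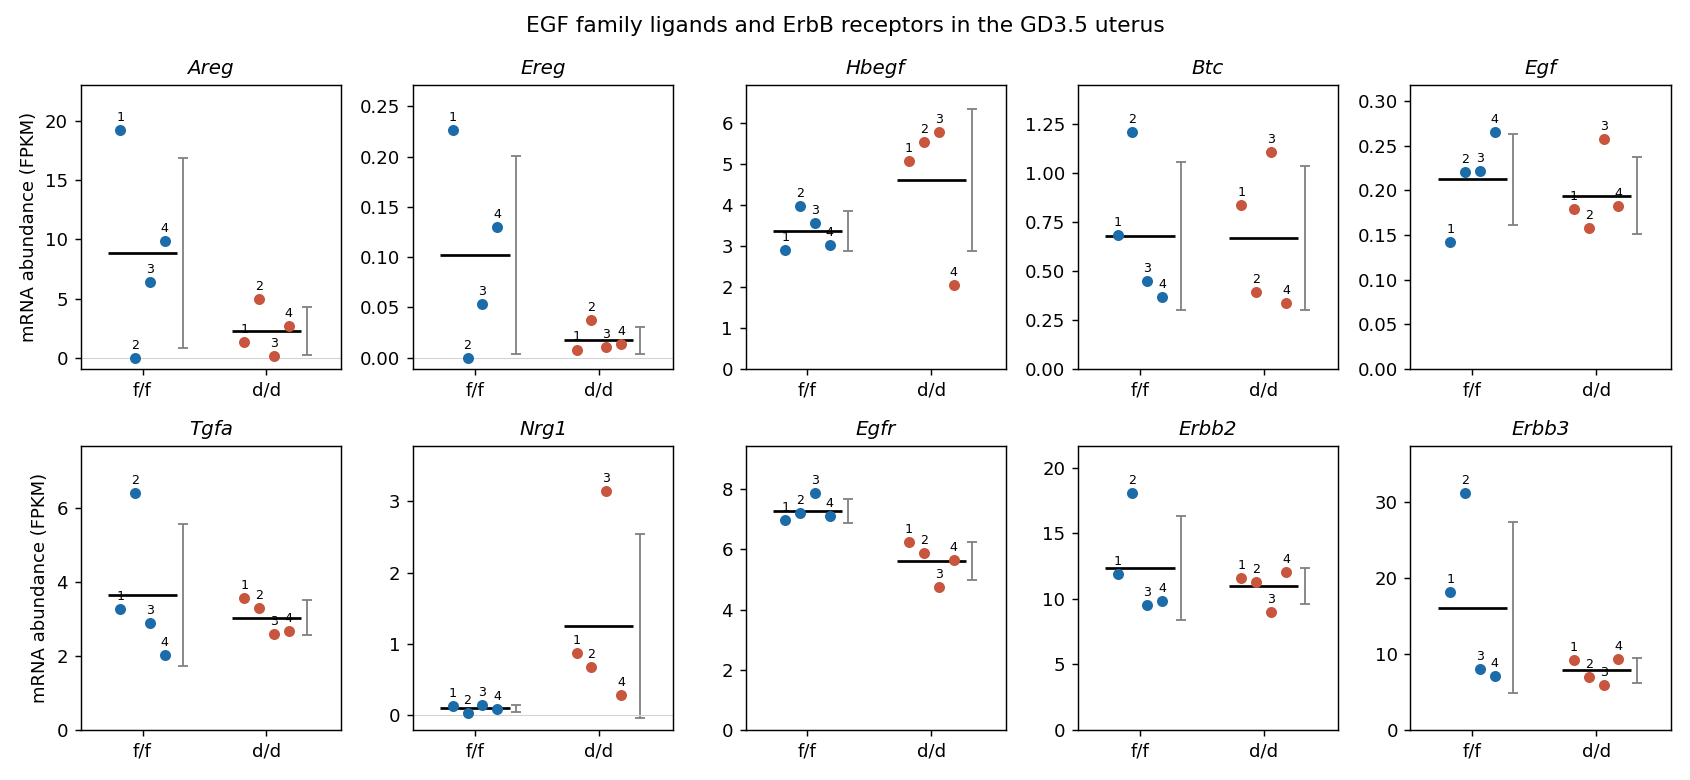
mRNA abundance in FPKM of the 10 genes in each of the 8 libraries, with blue points for Nr2f2 f/f, red points for Nr2f2 d/d, replicate numbers beside the points, black lines for the group means and grey bars for 1 SD either side (n = 4). Nrg1 and Egfr have groups that do not overlap, and control replicate 2 is the lowest library for Areg at 0.040 FPKM and the highest for Erbb3 at 31.2 FPKM.

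Areg, which encodes amphiregulin, was the most abundant ligand mRNA in 3 of 4 control uteri and varied more between mice than any other member tested. It had 19.2, 0.040, 6.40 and 9.85 FPKM in control replicates 1 to 4 and 1.39, 4.95, 0.142 and 2.66 FPKM in mutant replicates 1 to 4. All mutant uteri lay below control replicates 1, 3 and 4, and above replicate 2, where its level stands for about 2.99 fragments, against 1470 in replicate 1. The mean was 8.86 ± 7.98 FPKM (SD, n = 4) in controls and 2.29 ± 2.05 FPKM (SD, n = 4) in mutants. The log2 fold change was -1.30 (standard error 1.13, 95% interval -3.88 to 1.29, limma adjusted p = 0.543; exact permutation p = 0.343), so neither test told the groups apart. The call turned on 1 library. Without control replicate 2 the log2 fold change of Areg was -2.39, with an unadjusted p of 0.0121 and an adjusted p of 0.133 from limma, which meets the study's threshold. The control mean was then 11.8 ± 6.61 FPKM (SD, n = 3), and 19.4% of it was left in mutants. Across all fits that left out 1 library the log2 fold change of Areg ran from -2.39 to -0.66, with an adjusted p of 0.133 to 0.801 from limma.

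Ereg, which encodes epiregulin, was scarce and followed Areg from mouse to mouse. It had 0.226, 0, 0.053 and 0.130 FPKM in control replicates 1 to 4 and 0.008, 0.037, 0.010 and 0.013 FPKM in mutant replicates 1 to 4. These values stand for about 59.0, 0, 17.0 and 33 fragments and about 2.04, 10.9, 3.83 and 4.87 fragments, so all mutant libraries but replicate 2 are close to the 3 fragments taken as the floor. As with Areg, every mutant uterus lay between control replicate 2 and the other control uteri. The groups therefore overlapped (exact permutation p = 0.143), with 0.102 ± 0.0983 FPKM (SD, n = 4) in controls and 0.017 ± 0.0135 FPKM (SD, n = 4) in mutants. Without control replicate 2 the control mean of Ereg was 0.136 ± 0.0867 FPKM (SD, n = 3), of which 12.5% was left in mutants against 16.6% with all libraries, and the groups no longer overlapped. The 8 libraries ranked alike for Areg and Ereg except for mutant replicates 1 and 3, which changed places at ranks 6 and 7. The order is a description over 8 libraries, which share their depth and tissue makeup for both genes.

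Areg and Ereg are neighbours in a cluster of EGF family genes on chromosome 5 of mm10, in the order Epgn, Ereg, Areg and Btc. Ereg lies from 91074622 to 91093646 and Areg from 91139599 to 91148432, both on the plus strand, with 45952 bases and no annotated gene between them. Epgn, which encodes epigen, lies 39406 bases before Ereg and was at most 0.067 FPKM in any library. Btc lies from 91357261 to 91402994 on the minus strand, 208828 bases beyond Areg, and its order over the libraries was unlike theirs: control replicate 2 was the highest of the 8 for Btc and the lowest for Areg and Ereg.

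The promoter of Areg is shown because this was the member tested with the widest range between mice. The 250 bases before the RefSeq start of the gene, chr5:91139349-91139598 on the plus strand of GRCm38.p6, read as follows, with capitals for the matches to a cyclic AMP response element (TGACGTCA), a GC box (GGGCGG) and a TATA box (TATAAA).
Areg promoter: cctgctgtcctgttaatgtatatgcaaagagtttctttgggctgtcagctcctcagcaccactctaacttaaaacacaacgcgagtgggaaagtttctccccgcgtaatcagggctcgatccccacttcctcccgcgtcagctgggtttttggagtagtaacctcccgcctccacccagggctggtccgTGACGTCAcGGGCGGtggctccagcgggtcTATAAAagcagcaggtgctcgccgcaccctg
The element TGACGTCA, searched on both strands, was in 1.55% of 32851 mouse promoters of this length, GGGCGG in 32.7% and TATAAA in 12.4%. Promoters of 6 of the 10 genes were matched, those of Areg, Btc, Egf, Tgfa, Egfr and Erbb2, and Areg was the only one of them with TGACGTCA or TATAAA in this window. GGGCGG, which does not overlap the other motifs in Areg, was also in the windows of Tgfa and Egfr. AGGTCA, the half-site that many nuclear receptors bind, was in 14.0% of all windows and in none of these 6. A match is a run of letters and not a measured binding site.

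**Figure D2:**
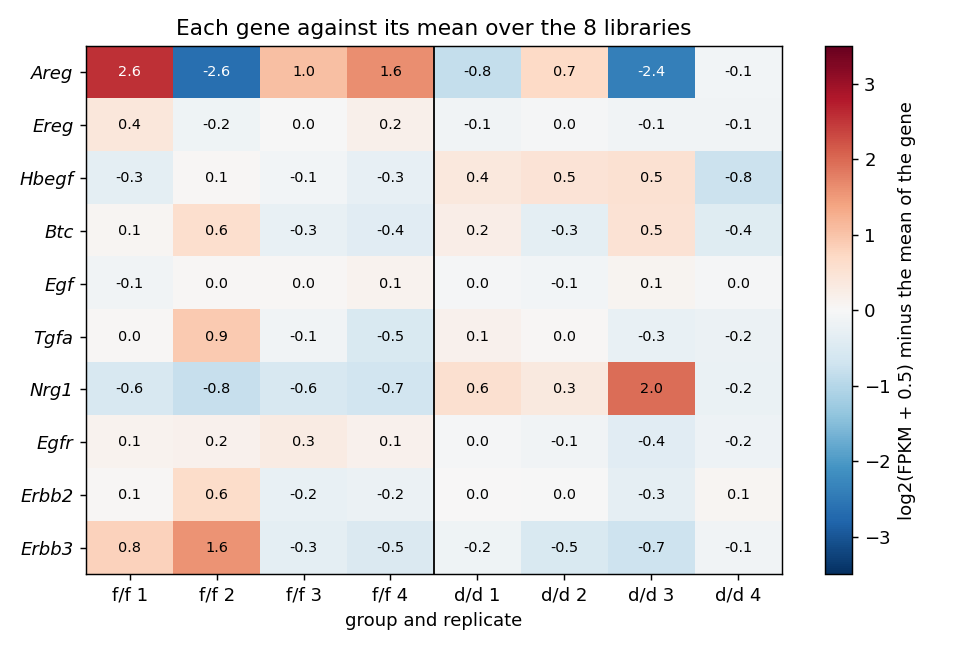
Colour and printed value give log2(FPKM + 0.5) of each gene minus its own mean over the 8 libraries, with genes in rows and libraries in columns, Nr2f2 f/f left of the black line and Nr2f2 d/d right of it. Control replicate 2 and mutant replicate 3 are both far below the mean for Areg, and Nrg1 is below its mean in every control library. Ereg and Egf vary little on this scale because their FPKM are under the 0.5 that was added.

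Hbegf, which encodes heparin-binding EGF-like growth factor, was higher in 3 of 4 mutant uteri than in any control uterus. It had 2.89, 3.96, 3.55 and 3.02 FPKM in control replicates 1 to 4 and 5.07, 5.53, 5.76 and 2.04 FPKM in mutant replicates 1 to 4. Mutant replicate 4 was the lowest of all 8 libraries. The mean was 3.36 ± 0.494 FPKM (SD, n = 4) in controls and 4.6 ± 1.73 FPKM (SD, n = 4) in mutants, and the log2 fold change was 0.33 (standard error 0.282, 95% interval -0.32 to 0.97, limma adjusted p = 0.539). With all 8 libraries, neither limma nor the permutation test told the groups apart (exact permutation p = 0.343). Without mutant replicate 4 the log2 fold change of Hbegf was 0.63 and its adjusted p 0.0476 from limma, and in the other fits that left out 1 library it did not pass an adjusted p of 0.05. The same library had the most of the muscle genes Tagln and Acta2 of all 8, 786 and 652 FPKM, and the most of the oviduct gene Ovgp1, 53.7 FPKM. Their part in the value of Hbegf was not tested.

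Tgfa, which encodes transforming growth factor alpha, was also present at a few FPKM. It had 3.26, 6.40, 2.88 and 2.03 FPKM in control replicates 1 to 4 and 3.55, 3.29, 2.58 and 2.67 FPKM in mutant replicates 1 to 4. The mutant values all lay inside the control range, which replicate 2 set at its upper end. The log2 fold change of Tgfa was -0.14 (95% interval -0.79 to 0.50, limma adjusted p = 0.810), and it turned to 0.14 without control replicate 2. Btc, which encodes betacellulin, had 0.682, 1.21, 0.451 and 0.367 FPKM in control replicates 1 to 4 and 0.839, 0.395, 1.11 and 0.337 FPKM in mutant replicates 1 to 4. Here too the groups overlapped, with a log2 fold change of -0.01 (95% interval -0.66 to 0.64, limma adjusted p = 0.988) that took either sign as libraries were left out. These intervals allow a change of about 0.5 to 0.8 log2 units in either direction for Tgfa and Btc. Egf, the founding member of the family, stayed at 0.142 to 0.265 FPKM in controls and 0.158 to 0.257 FPKM in mutants (exact permutation p = 0.571). It was the steadiest ligand from mouse to mouse, with a highest library 1.87 times the lowest over all 8. Other annotated genes on the opposite strand share 9.82% of the exon bases of Egf, and the counting is not stated to use strand.

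Nrg1, which encodes neuregulin 1, was the only member at the study's threshold. It had 0.135, 0.039, 0.140 and 0.085 FPKM in control replicates 1 to 4 and 0.878, 0.680, 3.15 and 0.293 FPKM in mutant replicates 1 to 4. The lowest mutant uterus, replicate 4, was above the highest control uterus. These values stand for about 24.8 to 113 fragments in controls and 275 to 3020 fragments in mutants. The mean was 0.0998 ± 0.0475 FPKM (SD, n = 4) in controls and 1.25 ± 1.29 FPKM (SD, n = 4) in mutants, a ratio of 12.5 as FPKM. Without mutant replicate 3 the mutant mean was 0.617 ± 0.298 FPKM (SD, n = 3), a ratio of 6.19. On the log2 scale after 0.5 was added the fold change was 1.30 (standard error 0.413, 95% interval 0.35 to 2.25), with an unadjusted p of 0.0133 and an adjusted p of 0.132 from limma. The separation of 4 from 4 mice gave the smallest p that the design allows (exact permutation p = 0.0286).

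Nrg1 kept its direction and stayed at the study's threshold when any library but mutant replicate 3 was left out, with log2 fold changes of 1.25 to 1.6 and adjusted p-values of 0.0795 to 0.243 from limma. Without mutant replicate 3, which alone held 3.15 FPKM, the log2 fold change was 0.86 (limma adjusted p = 0.088), still at the study's threshold. The mean of Nrg1 over the 7 libraries left was then 0.321 FPKM, under the 0.5 FPKM asked for, so the gene was in that fit only through the library left out. With all 8 libraries and no filter on low values, its adjusted p was 0.165 from limma. The log2 fold change of Nrg1 was 2.35 with 0.1 in place of 0.5 added and 0.88 with 1 added, since its level is near those values. The gene is not tested at all when a mean of 1 FPKM is asked for. Neuregulin 1 is known from Schwann cells and nerves, among other sources, and a list of 6 markers of these cells was therefore set beside it. Their sum was 7.31 to 15.5 FPKM in controls and 37.1 to 71.3 FPKM in mutants. Most of the mutant sum was Ngfr, the low-affinity nerve growth factor receptor, which is not limited to nerves, while Sox10, which defines Schwann cells, was under 0.1 FPKM in all 8 libraries. Of the 3 markers on that list that were tested, 2 met the study's threshold, both higher in mutants, and 1 of these had an adjusted p under 0.05 from limma. The part of these cells in the level of Nrg1 was not tested. In whole tissue, here and for every gene named, fewer cells of a type and less RNA per cell cannot be told apart. Nrg1 lies on the minus strand of chromosome 8, at 31814551 to 32884029 in mm10, and 4.66% of its exon bases are shared with Gm26578 on the opposite strand.

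**Figure D3:**
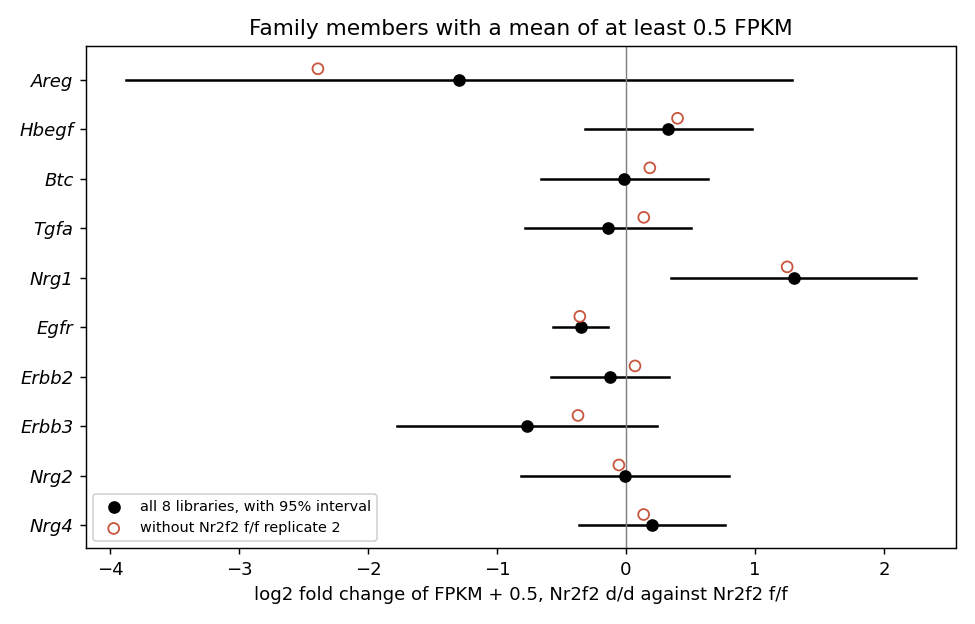
Black points are limma's log2 fold changes of FPKM + 0.5, Nr2f2 d/d against Nr2f2 f/f, for the 10 family genes that passed the filter on low values, with lines for the 95% interval over all 8 libraries. Open red circles are the same without control replicate 2, which moves Areg from -1.30 to -2.39 and turns the sign of Btc, Tgfa and Erbb2. The intervals of Nrg1 and Egfr are the ones that leave out 0.

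Egfr, the receptor of most of these ligands, was lower in all 4 mutant uteri than in any control uterus and varied little within a group. It had 6.98, 7.21, 7.88 and 7.12 FPKM in control replicates 1 to 4 and 6.23, 5.88, 4.75 and 5.64 FPKM in mutant replicates 1 to 4. The gap between the groups was narrow, from 6.23 to 6.98 FPKM. The mean was 7.30 ± 0.400 FPKM (SD, n = 4) in controls and 5.63 ± 0.633 FPKM (SD, n = 4) in mutants, so 77.1% of the control level was left. The log2 fold change of Egfr was -0.35 (standard error 0.0923, 95% interval -0.56 to -0.14), with an unadjusted p of 0.00486 and an adjusted p of 0.0832 from limma (exact permutation p = 0.0286). This was the smallest p of the 8 members tested, but the change is below the fold of 1.4 in the study's threshold. Leaving out 1 library at a time gave Egfr a log2 fold change of -0.40 to -0.28 and an adjusted p of 0.111 to 0.176 from limma. Egfr lies on the plus strand of chromosome 11, at 16752203 to 16918158 in mm10 and shares no exon bases with another annotated gene.

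The cell type markers moved in different directions between the same groups, and their part in the level of Egfr was not tested. The 10 stromal markers summed to 1600 to 1830 FPKM in controls and 2140 to 3810 FPKM in mutants, although 6 of the 10 were lower in mutants and 4 higher. Of these, 4 met the study's threshold as higher, among them Col3a1 and Dcn, and 2 as lower, Vim and Vcan, with log2 fold changes of -0.66 and -0.91 (limma adjusted p = 0.113 and 0.0620). The 10 epithelial markers summed to 822 to 865 FPKM and 996 to 1160 FPKM. The 8 endothelial markers summed to 200 to 285 FPKM in controls and 118 to 149 FPKM in mutants, and all 8 were at the study's threshold and lower in mutants, 5 of them with an adjusted p under 0.05 from limma. Gland markers summed to 153 to 3290 FPKM in controls and 41.5 to 93.8 FPKM in mutants, mainly through Spink1, Prss28 and Prss29. Of that list 6 were lower and 2 higher, and 2 met the study's threshold as lower and 0 as higher. The log2 fold change was -5.93 for Spink1 (limma adjusted p = 0.0292), the only 1 of the list with an adjusted p under 0.05. It was -0.02 for Foxa2 and 1.02 for Cxcl15 (limma adjusted p = 0.971 and 0.469). Mesothelial markers, which share Krt19 with the epithelial list, summed to 82.4 to 127 FPKM and 182 to 272 FPKM. Leukocyte sums were 29.3 to 47.2 FPKM and 41.0 to 63.7 FPKM, smooth muscle sums 1300 to 1830 FPKM and 1040 to 2560 FPKM, and sums of ovary and oviduct markers 16.5 to 34.3 FPKM and 11.1 to 61.1 FPKM, in controls and mutants. The libraries hold the epithelial, stromal and muscle markers of a uterus at high levels. Among the leading markers, at their highest library, the epithelial genes Cldn3 and Krt8 reached 355 and 208 FPKM, the stromal genes Col3a1 and Dcn 1290 and 719 FPKM, and the muscle genes Tagln and Acta2 786 and 652 FPKM. Pecam1 and Cdh5 of the endothelium reached 70.9 and 61.0 FPKM, Ptprc and Ncr1 of leukocytes 18.7 and 16.8 FPKM, and Krt19 and Upk3b of the mesothelium 206 and 35.3 FPKM. Ngfr and Mbp of the nerve list reached 67.4 and 2.71 FPKM, and Ovgp1 and Inha of ovary and oviduct 53.7 and 5.20 FPKM.

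Erbb2, the receptor without a ligand of its own, did not part the groups. It had 11.9, 18.1, 9.54 and 9.85 FPKM in control replicates 1 to 4 and 11.6, 11.3, 9.0 and 12.1 FPKM in mutant replicates 1 to 4. The log2 fold change of Erbb2 was -0.12 (95% interval -0.58 to 0.33, limma adjusted p = 0.760; exact permutation p = 0.686), and it was 0.07 without control replicate 2, which had the highest value. Erbb3, a receptor of NRG1, had 18.2, 31.2, 7.96 and 7.08 FPKM in control replicates 1 to 4 and 9.14, 6.92, 5.95 and 9.31 FPKM in mutant replicates 1 to 4. Control replicates 1 and 2 were far above the rest, while replicates 3 and 4 lay among the mutant values. The mean of Erbb3 was 16.1 ± 11.3 FPKM (SD, n = 4) in controls and 7.83 ± 1.66 FPKM (SD, n = 4) in mutants, and the log2 fold change was -0.77 (standard error 0.441, 95% interval -1.78 to 0.24, limma adjusted p = 0.350; exact permutation p = 0.229). It was -0.37 without control replicate 2 (limma adjusted p = 0.551). Without control replicate 4 it was -1.06, with an unadjusted p of 0.0372, which meets the study's threshold. The gland genes Spink1 and Prss29 were high in the same pair of libraries, with 288 and 1330 FPKM for Spink1 and 244 and 1440 FPKM for Prss29 in control replicates 1 and 2, against 165 and 115 FPKM for Spink1 and 2.80 and 2.05 FPKM for Prss29 in replicates 3 and 4. In mutants, Spink1 was at 0.729 to 24.4 FPKM and Prss29 at 0.041 to 41.6 FPKM. Other genes of the gland list ran the other way, with 5.15 and 3.24 FPKM for Foxa2 in control replicates 1 and 2 against 7.74 and 6.96 FPKM in replicates 3 and 4. Whether the level of Erbb3 comes from gland cells was not tested. Erbb2 lies on the plus strand of chromosome 11, at 98412470 to 98437716, and Erbb3 on the minus strand of chromosome 10, at 128567523 to 128589652 in mm10.

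As FPKM, the 3 receptors together were more abundant than the 7 ligands in every library. The ligands summed to 26.5, 11.9, 13.7 and 15.7 FPKM in control replicates 1 to 4 and to 11.9, 15, 13 and 8.20 FPKM in mutant replicates 1 to 4. The receptors summed to 37.0, 56.5, 25.4 and 24.1 FPKM in controls and to 26.9, 24.1, 19.7 and 27.0 FPKM in mutants. Both sums overlapped between the groups. Of the shares of the 7 ligands in their sum, 6 overlapped between the groups and that of Nrg1 did not. Areg was 72.3%, 0.337%, 46.7% and 62.5% of the ligand sum in control replicates 1 to 4 and 11.6%, 32.9%, 1.09% and 32.5% in mutant replicates 1 to 4. Nrg1 was 0.329% to 1.02% of it in controls and 3.57% to 24.2% in mutants, with no overlap. Hbegf was 10.9% to 33.4% in controls and 24.9% to 44.3% in mutants, and among these 7 ligands, which leave out Nrg4, it led in 3 of 4 mutant uteri. Among the receptors, the share of Erbb2 was 32.0% to 41.0% in controls and 42.9% to 46.8% in mutants, again without overlap, although its own level did not part the groups. Erbb3 made up 49.1% and 55.3% of the receptor sum in control replicates 1 and 2, and 28.8% to 34.4% in the other 6 libraries. The shares are given without a test, since those of a pool depend on each other.

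**Figure D4:**
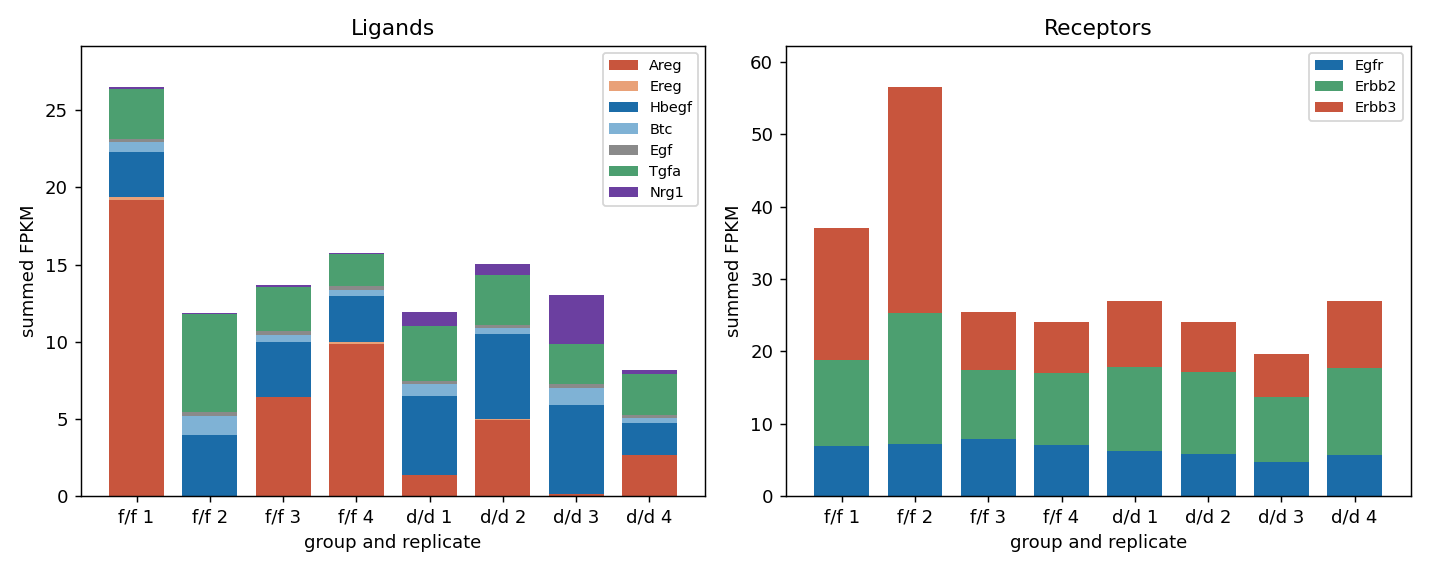
Bars give the summed FPKM of the 7 ligands on the left and the 3 receptors on the right in each library, stacked by gene, with axes from 0. Areg is the largest segment of the ligand bar in control replicates 1, 3 and 4, and the Nrg1 segment at the top is visible mainly in mutants, where it reaches 24.2% in replicate 3.

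The other 5 genes of the family were scarce or did not part the groups. Nrg4, which encodes neuregulin 4, had 3.88 ± 0.851 FPKM (SD, n = 4) in controls and 4.66 ± 1.48 FPKM (SD, n = 4) in mutants, and the log2 fold change was 0.20 (limma adjusted p = 0.680). It was thus more abundant than Nrg1 in every library but mutant replicate 3. Nrg2 had 1.71 ± 0.752 and 1.80 ± 1.09 FPKM (SD, n = 4 each), and the log2 fold change was -0.01 (limma adjusted p = 0.993). It changed sign with the scaling and with the library left out. Nrg3 is listed at 0 in all 8 libraries. Epgn had 0.0545 ± 0.0148 and 0.0302 ± 0.0226 FPKM (SD, n = 4 each; exact permutation p = 0.171). Erbb4, the receptor that neuregulins and HBEGF share, was at most 0.074 FPKM, in control replicate 2, and at most 0.016 FPKM elsewhere. Erbb4 did not pass the filter on low values, and its groups overlapped.

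Lists of genes that act before and after the receptors were set beside the members. Of 15 genes for the release of ligands from the membrane, 14 were tested, 7 higher and 7 lower in mutants, with a median log2 fold change of 0.002. In this list 2 higher and 2 lower genes met the study's threshold, which 8.8% of all genes met. Adam15, a membrane protease, fell from 41.0 ± 2.42 to 28.9 ± 2.11 FPKM (SD, n = 4 each), and the log2 fold change was -0.50 (limma adjusted p = 0.0201). All 4 mutant uteri, at 27.1 to 31.9 FPKM, were below all control uteri, at 38.8 to 44.3 FPKM, and the adjusted p stayed under 0.05 in 4 of the 8 fits that left out 1 library. It was 0.0662 and 0.0509 from limma without control replicates 1 and 4, and 0.0685 and 0.0742 without mutant replicates 1 and 2. Adam17, which cuts AREG, TGFA and HBEGF free, had 16.8 ± 0.726 and 16.1 ± 1.29 FPKM (SD, n = 4 each), and the log2 fold change was -0.06 (95% interval -0.23 to 0.11, limma adjusted p = 0.667). Timp3, which inhibits such proteases, had a log2 fold change of -0.59 (limma adjusted p = 0.0571), and Tspan15, a partner of ADAM10, one of 0.95 (0.0815). The adjusted p of Timp3 was 0.044 without control replicate 3 and 0.0851 to 0.139 from limma when any other library was left out.

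Of 26 genes that restrain the receptors or their cascade, 9 were higher and 17 lower, with a median log2 fold change of -0.118. In this list 1 higher and 3 lower genes met the study's threshold, beside the 8.8% of all genes. Cbl, the ubiquitin ligase that sends active EGFR to degradation, fell from 2.55 ± 0.239 to 1.32 ± 0.372 FPKM (SD, n = 4 each), and the log2 fold change was -0.77 (limma adjusted p = 0.0496). Cbl did not overlap between the groups, but its adjusted p was 0.0712 to 0.126 in the 8 fits that left out 1 library. With all 8 libraries it was 0.0513 to 0.0746 from limma with 0.1 added, with no filter or a mean of at least 1 FPKM, with median-ratio scaling or with robust estimation, so the call is marginal. Socs4 and Spred3 had log2 fold changes of -0.52 and -0.50 (limma adjusted p = 0.0806 and 0.0851). Errfi1, whose protein binds and blocks the EGFR kinase, was abundant in both groups, with 47.0 ± 8.09 and 42.6 ± 9.25 FPKM (SD, n = 4 each) and a log2 fold change of -0.15 (limma adjusted p = 0.677).

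Of 31 adaptors and kinases after the receptors, 16 were higher and 15 lower, with a median log2 fold change of 0.011, and 2 higher and 1 lower met the study's threshold, near the share of 8.8% among all genes. Stat5a, a transcription factor that ErbB receptors and the prolactin receptor can activate, rose from 7.91 ± 0.806 to 13.4 ± 0.601 FPKM (SD, n = 4 each). It had 8.26, 6.74, 8.56 and 8.07 FPKM in control replicates 1 to 4 and 14.1, 13, 12.8 and 13.6 FPKM in mutant replicates 1 to 4, with a wide gap between the groups. The log2 fold change of Stat5a was 0.73 (standard error 0.0855, limma adjusted p = 0.00894), and its adjusted p stayed under 0.05 whichever of the 8 libraries was left out. Plcg1 and Sos1, a phospholipase and a Ras activator that the receptors recruit, had log2 fold changes of -0.47 and -0.22 (limma adjusted p = 0.0726 and 0.113).

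Of 15 genes commonly read as output of the ERK cascade, 14 were tested, 6 higher and 8 lower, with a median log2 fold change of -0.041, and 1 higher and 3 lower met the study's threshold, against 8.8% of all genes. Myc, which encodes a transcription factor of growth, fell from 55.8 ± 7.67 to 29.0 ± 2.62 FPKM (SD, n = 4 each). It had 51.7, 66.8, 49.6 and 55.1 FPKM in control replicates 1 to 4 and 26.3, 32.6, 28.7 and 28.2 FPKM in mutant replicates 1 to 4, so the groups lay far apart. The log2 fold change of Myc was -0.93 (standard error 0.109, limma adjusted p = 0.00888), and its adjusted p stayed under 0.05 whichever of the 8 libraries was left out. Etv5 and Egr1 had log2 fold changes of -0.70 and -0.75 (limma adjusted p = 0.0869 and 0.101). The genes of this list did not move as one, and other pathways also act on each of them.

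**Figure D5:**
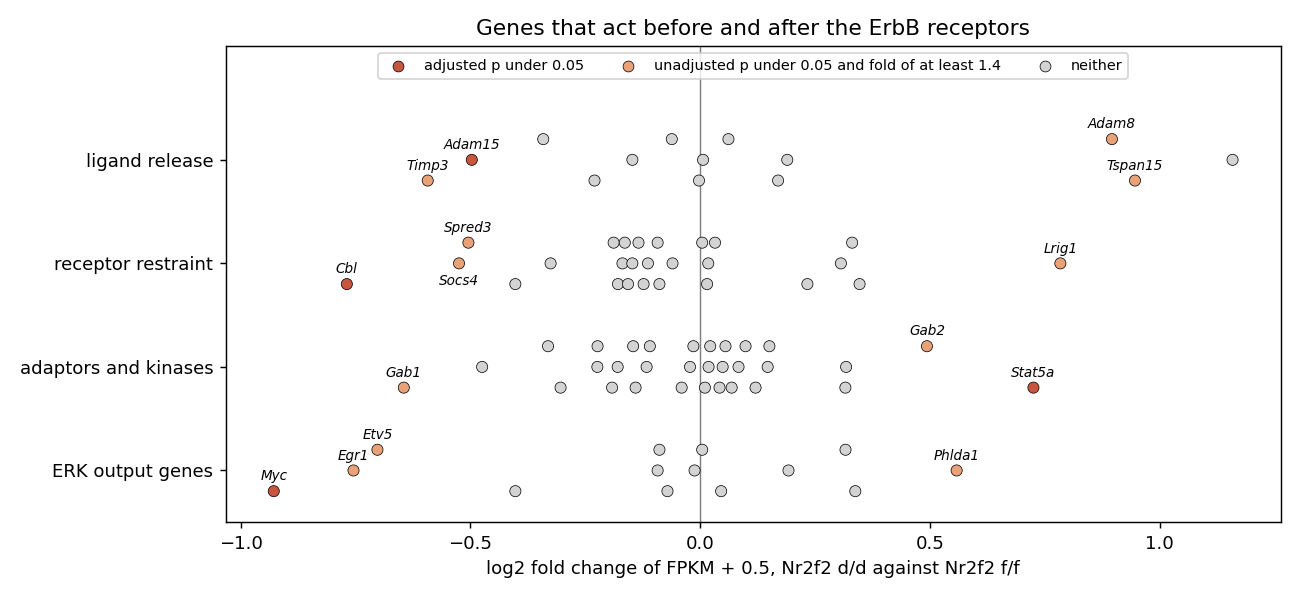
Each point is a tested gene of the 4 lists, placed by its log2 fold change of FPKM + 0.5, Nr2f2 d/d against Nr2f2 f/f, and spread vertically only for legibility. Named genes are those with an adjusted p under 0.05 from limma (dark red: Adam15, Cbl, Stat5a and Myc) or at the study's threshold alone (light red), and all 4 lists have genes on both sides of 0.

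Egfr had the smallest p of the members, and the 3 genes outside the family whose values lay nearest to it over the 8 libraries were Eif2ak4, Slc5a6 and Bclaf3. Likeness is the root mean square difference of log2(FPKM + 0.5) after each gene is centred on its own mean, and it was 0.055, 0.059 and 0.061 log2 units, against a range of 0.675 for Egfr itself. Eif2ak4, a kinase that senses amino acid shortage, had 6.43 to 7.55 FPKM in controls and 4.75 to 6.14 FPKM in mutants, close to the levels of Egfr. For Areg and Nrg1 the same measure was looked up after their values were seen. The genes nearest to Areg were E130008D07Rik, Ctgf and Ihh, at 0.748, 0.889 and 0.962 log2 units against a range of 5.19 for Areg. Ihh, the hedgehog ligand of the uterine epithelium, had 67.4, 6.05, 22.8 and 18.2 FPKM in control replicates 1 to 4 and 14.7, 20.3, 4.03 and 44.4 FPKM in mutant replicates 1 to 4. Like Areg, it was highest in control replicate 1 and low in control replicate 2 and mutant replicate 3. The genes nearest to Nrg1 were Cldn2, Gfra3 and Ntf3, at 0.177, 0.186 and 0.216 log2 units against a range of 2.76. Ntf3, which encodes neurotrophin 3, had 0.493 to 0.878 FPKM in controls and 0.889 to 9.39 FPKM in mutants, with its highest value in mutant replicate 3, as for Nrg1.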

How the data were processed

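RNA of whole uterine tissue was sequenced as paired-end reads. The authors deposited FPKM, rounded to 3 decimals, for 24963 genes, of which 3893 were at 0 in all 8 libraries. Per the labels and the submitters' processing notes, cutadapt 1.12, STAR 2.5.2b and featureCounts 1.5.0-p1 were used with mm10, and Cufflinks 2.0.2 is also named. The sources used here do not state the annotation or the strand setting. FPKM are relative to a library's total, so very abundant transcripts shift all others. The study's methods tested counts, which were not used here.

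The 10 members and all lists were chosen with earlier results of these data known. Library totals were recovered from short genes of 1 exon, of which 96.9% to 98.5% came out within 0.1 of a whole fragment, against medians of 12.4% to 13.6% at other totals. Their medians were 62375000 fragments for Nr2f2 f/f and 81050000 for Nr2f2 d/d. The floor of 3 fragments takes in counting error alone. Values were taken to log2(FPKM + 0.5), and limma 3.58.1 (R 4.3.3; lmFit, then trended eBayes) was run two-sided on genes whose mean reached 0.5 FPKM, with Benjamini-Hochberg adjustment over all 14323. Two-sided exact permutation tests used all 70 arrangements of the libraries, with 0.0286 as the smallest p. On simulated data with 14323 genes, 97 of 104 genes changed 4-fold and 69 of 96 genes changed 2-fold were called, along with 14 unchanged genes among 180 calls. Changes were planted only in genes whose mean log2(FPKM + 0.5) was above 1, with independent normal noise and no library that stands apart. These rates therefore do not apply to scarcer genes such as Nrg1 and Btc.

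Groups and replicate numbers are those of the sample titles. The genes named are the members, the 5 other family genes, Nr2f2, Errfi1, Adam17 and the 3 genes with the smallest p in each pathway list, the 2 most abundant genes of each marker list and the 3 genes nearest to the member with the smallest p. The genes nearest to Areg and Nrg1, and the markers Prss28, Foxa2, Cxcl15, Lif, Vim, Vcan and Sox10, lie outside that rule and were chosen after their values were seen. Of 15 ligand release genes, 14 were found in the table. Coordinates are from GENCODE vM21 on mm10 and promoters from RefSeq on GRCm38.p6, with Python 3.11.15. Alternatives were other added values and filters, median-ratio scaling, quantile normalization, eBayes without trend or with robust estimation, a replicate block, and each library left out in turn, with the genes that passed the filter over all 8 libraries.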

Additional observations from a re-analysis of the deposited data

Results flagged for a closer look

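Within the groups of 4 libraries, 84 sets of values were searched for a library whose gap to its nearest neighbour relative to the range passed Dixon's 95% critical value, which chance gives in about 1 of 20, and 5 were found. For Nrg2, control replicate 3 had 2.83 FPKM, with 1.43 FPKM next. For Erbb4, control replicate 2 had 0.074 FPKM, with 0.001 FPKM next. The share of Btc in the ligand sum was 10.2% in control replicate 2, with 3.29% next. Nr2f2 itself was at 6.90 FPKM in mutant replicate 3, with 9.42 FPKM next. Egr1 was at 13 FPKM in mutant replicate 2, with 8.09 FPKM next. Control replicate 2, the library with the most Spink1 and Prss29, holds 2 of these 5 values. Areg in controls, despite its range from 0.040 to 19.2 FPKM, was not among them, because its 4 values are spread along that range.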

How the results depend on the processing

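The counts and the log2 fold changes of tested genes were recomputed under 19 alternatives (18 for Btc and Nrg1, which a mean of at least 1 FPKM leaves out), of which those by description number and without both libraries that stand apart (control replicate 2 and mutant replicate 3) were chosen after seeing the data. Areg, Hbegf, Nrg1, Egfr, Erbb3 and Nrg4 kept their direction in every alternative that gave a value. With 1 library left out in turn, the count of genes with an adjusted p under 0.05 was 42 to 347 against 375 (62, 210 and 98 without control replicates 1, 3 and 4, 56 and 42 without mutant replicates 1 and 2), and that of members 0 to 1, the 1 being Hbegf with log2 fold changes of 0.20 to 0.63. Members at the study's threshold then numbered 1 to 2 against 1, and genes of receptor restraint 2 to 5 against 4, with 2 without control replicate 1 or mutant replicate 2. Log2 fold changes ran from -0.18 to 0.19 for Btc, -0.35 to 0.14 for Tgfa, -0.23 to 0.07 for Erbb2 and -0.29 to 0.25 for Nrg2. Nrg2 also turned to 0.005 with 1 added and to 0.01 with median-ratio scaling. With 1 added, 2 genes of receptor restraint met the study's threshold, and with a mean of at least 1 FPKM 0 members did, because Nrg1 was not tested. Libraries with the same title number did not deviate together (correlations of -0.204 to 0.045). Of the 3 pairs that share a description number, 1 had a correlation of 0.149 and the others -0.204 and -0.04, so neither numbering was taken to pair the mice. With the title's number as replicate block, 1 gene had an adjusted p under 0.05, and the adjusted p of Stat5a, Myc, Adam15 and Cbl was 0.0925, 0.0556, 0.137 and 0.16. With the numbers of the descriptions as replicate block, 0 genes did by limma's adjusted p, 3186 had an unadjusted p under 0.05, 2 members met the study's threshold, and 2 genes each of ligand release and ERK output did against 4 each. The adjusted p of Stat5a, Myc, Adam15 and Cbl was then 0.0918, 0.0918, 0.129 and 0.114. In that fit and without both libraries that stand apart, Btc was at 0.014, Tgfa at 0.199, Erbb2 at 0.158 and Errfi1 at 0.059, and in the latter 2 members met the study's threshold. Control replicate 2 and mutant replicate 3 each have a description number that no other library shares, so that block leaves both out of the contrast. Both fits therefore gave the same log2 fold changes. The cause of the shifts was not tested beyond the fewer libraries used. With 4 mice a group, the intervals of Areg and Erbb3 span over 2 log2 units.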
